A study of Mus musculus with 12 samples.

Results

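The natriuretic peptide system and the fetal stress genes of the heart were followed here through 8 genes, matched by symbol to their Ensembl identifiers among the 38293 genes of each count table: Nppa, Nppb, Corin, Npr1, Npr2, Npr3, Acta1 and Ankrd1. All 8 were counted in every library and all 8 passed the filter on low counts in both tables. The libraries were made by RNA-seq from the hearts of mice of 8 to 9 weeks, which the labels give as C57B/6J, with 3 mice in each of 4 groups. WT sham mice had sham surgery and WT IR mice had ischaemia–reperfusion (IR), a temporary ligation of the left anterior descending artery, 14 days earlier. Zeb2 WT IR and Zeb2 cTg IR mice were littermates, both examined 14 days after IR. Zeb2 cTg mice carry on both alleles of the Rosa26 locus a Zeb2 transgene behind a floxed stop, which Cre recombinase under the cardiomyocyte promoter of Myh6 switches on, and Zeb2 WT mice are their wild-type controls. The labels name the left ventricle, the methods the remote zone and the design text the infarct with its border zone, so the zone that each value stands for is not settled.

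Nppa and Nppb encode atrial and B-type natriuretic peptide (ANP and BNP), hormones that ventricular muscle makes in the fetus, largely gives up after birth and makes again under load or after injury. Corin is the membrane protease that cuts pro-ANP, Npr1 is the guanylyl cyclase receptor of ANP and BNP, Npr2 is the receptor of C-type natriuretic peptide, and Npr3 is the receptor that clears all of these peptides. Acta1 (skeletal α-actin) is a sarcomeric actin that the adult mouse ventricle largely replaces with Actc1 (cardiac α-actin), and Ankrd1 (CARP) is a titin-binding ankyrin repeat protein and nuclear cofactor that responds to stretch.

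Nppb and Nppa lie side by side on the plus strand of chromosome 4 (GRCm38, 147985788 to 147987205 and 148000722 to 148002079), 13.5 kb apart. Npr2 is on the plus strand of the same chromosome (43631935 to 43651244). On the minus strand lie Npr1 (chromosome 3, 90450591 to 90465866), Corin (chromosome 5, 72300025 to 72504473), Acta1 (chromosome 8, 123891769 to 123894751), Npr3 (chromosome 15, 11839896 to 11907287) and Ankrd1 (chromosome 19, 36111961 to 36120099). Their identifiers are ENSMUSG00000041616 (Nppa), ENSMUSG00000029019 (Nppb), ENSMUSG00000027931 (Npr1), ENSMUSG00000028469 (Npr2), ENSMUSG00000022206 (Npr3), ENSMUSG00000005220 (Corin), ENSMUSG00000031972 (Acta1) and ENSMUSG00000024803 (Ankrd1). All 8 are protein-coding, and their counts are of reads on exons.

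The promoters of Nppa and Acta1 are shown because Nppa had the largest change of the 8 in either comparison and Acta1 the largest of opposite sign. Each is the 250 bases before the RefSeq start (GRCm38.p6), read on the gene's own strand, from chr4:148000472-148000721 (plus) and chr8:123894776-123895025 (minus). Capitals mark exact matches, on either strand, to the TATA box (TATAAA), the core of GATA factor sites (GATA), AAGTG (the core of the NKX2-5 site), CATTCC (the core of the TEAD site), CACCTG (the E-box that ZEB2 can bind) and the CArG box of serum response factor.
Nppa: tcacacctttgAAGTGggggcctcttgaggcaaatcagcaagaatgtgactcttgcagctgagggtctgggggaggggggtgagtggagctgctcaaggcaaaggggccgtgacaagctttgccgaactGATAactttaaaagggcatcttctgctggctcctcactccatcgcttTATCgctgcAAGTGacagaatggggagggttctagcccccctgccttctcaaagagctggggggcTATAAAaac
Acta1: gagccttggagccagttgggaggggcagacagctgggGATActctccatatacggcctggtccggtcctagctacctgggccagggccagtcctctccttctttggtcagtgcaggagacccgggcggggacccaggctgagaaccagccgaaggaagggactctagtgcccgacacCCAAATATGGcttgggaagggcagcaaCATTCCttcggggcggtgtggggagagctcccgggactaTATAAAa

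Upstream of its start, Nppa holds 2 matches to GATA, 2 to AAGTG and 1 to TATAAA, and Acta1 holds the CArG box, 1 GATA, 1 CATTCC and 1 TATAAA. The CArG boxes of Acta1 and of its partner Actc1 are shown for comparison:
Acta1: CCAAATATGG
Actc1: CCAAATAAGG
Over 32851 promoter windows of the same length (the same 250 bases and 50 after the start), a CArG box is in 1.63%, TATAAA in 13.6%, CATTCC in 14.7%, CACCTG in 20.2%, AAGTG in 46.4% and GATA in 57.9%, so a match to the last pair of motifs is common. In Nppb (chr4:147985795-147985820, plus) and Ankrd1 (chr19:36119950-36119967, minus) the matches lie close together, and these stretches are shown with the matches in capitals:
Nppb: GGAATGcagctGATAaatcagaGATA
Ankrd1: GGAATGaaaattCACCTG
GGAATG is CATTCC read on the other strand. Ankrd1 is the single gene of the 8 with a CACCTG in its window. Npr1, Npr3 and Corin hold none of the 6 motifs in theirs, and Npr2 holds 1 GATA after its start. For Nppb and Ankrd1, the RefSeq start lies 112 and 255 bases downstream of the start of the GENCODE gene, which shifts the window. For Acta1, Corin and Npr3 it lies upstream instead, at -24, -67 and -84 bases. A match is a description of these letters and not of a bound site.

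Library totals ran from 20215781 to 36816818 counts on genes, of which 60.6% to 73.5% fell on the mitochondrial genome, leaving 5706340 to 11618213 on nuclear genes. Levels are counts per 1e6 counts after TMM normalization (CPM), and 1 CPM stands for 17.2 to 37.8 counts. Zeb2, the gene that the genotype should raise, was at 57 ± 1.59 CPM in the Zeb2 cTg IR-labelled libraries and at 59.8 ± 6.43 CPM in Zeb2 WT IR (SD, n = 3 each; log2 fold change -0.07, standard error 0.12, adjusted p = 0.75, edgeR's quasi-likelihood test). Zeb2 was thus not higher where the label says so, and directions drawn from these libraries rest on the labels alone. The paper reports raised ZEB2 mRNA (by qPCR) and protein (by immunofluorescence) in Zeb2 cTg mice after IR. Whether those measurements were made on the hearts of these libraries is not stated. The 10 cardiomyocyte markers were all counted in every library. Of the atrial genes, Sln had 0 counts in 10 of the 12 libraries (1 count in WT IR replicate 3, 7 in the library labelled Zeb2 cTg IR replicate 3), and Myl7 had at most 3 counts except for 39 in that same library.

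Per kilobase of exon, so that genes can be compared with each other, Ankrd1 led in WT sham hearts with 82.9 ± 19.7 CPM per kb, followed by Acta1 with 77.3 ± 10.2 and Nppb with 69.1 ± 18.3 (SD, n = 3). These 3 overlapped, and all lay above Nppa with 30.0 ± 13.6 CPM per kb, which overlapped Corin with 19.1 ± 0.781. The receptors were the least abundant, with 3.61 ± 0.56 CPM per kb for Npr2, 1.91 ± 0.123 for Npr1 and 1.07 ± 0.0351 for Npr3, and none of these overlapped its neighbour. In WT IR hearts Nppa headed the order with 359 ± 123 CPM per kb, overlapping Ankrd1 with 213 ± 43.6, and the receptors kept their places below Corin. In Zeb2 WT IR hearts the order was Ankrd1, Nppb, Nppa, Acta1 and Corin, and in the Zeb2 cTg IR-labelled libraries Acta1, with 5.32 ± 2.36 CPM per kb, lay below Corin and overlapped Npr2. Nppc, the gene of C-type natriuretic peptide, had 0 counts in all 6 libraries of the Zeb2 table and at most 2 in any WT library. A count of 0 allows up to 3 counts, which is 0.0794 to 0.174 CPM depending on the library, and covers counting error only.

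**Figure D1:**
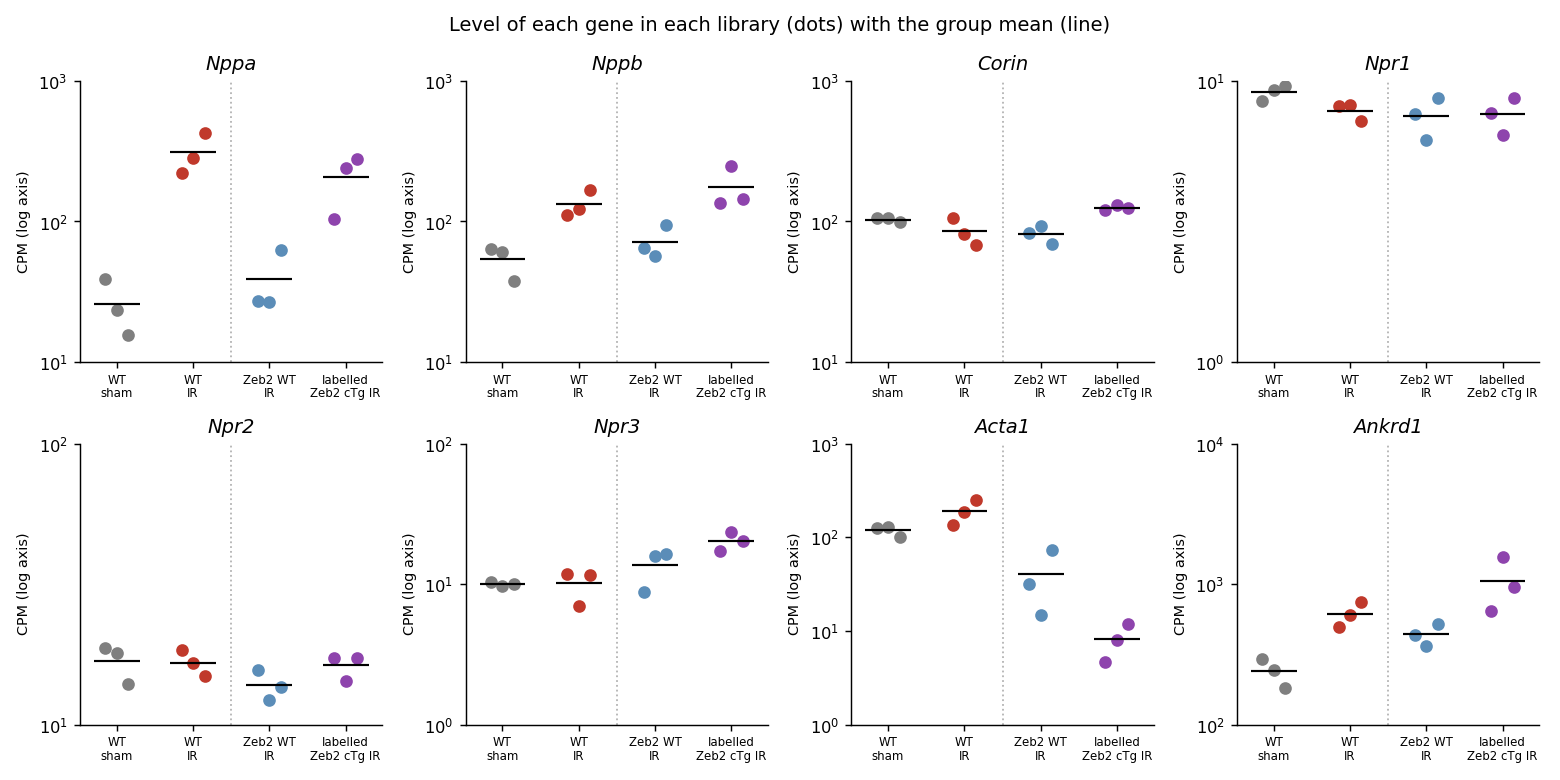
CPM (log axis, its range set for each gene) of the 8 genes in each library, by group; dots are libraries (1 mouse each), lines the means of 3, and the dotted line separates the tables, which were normalized separately. In WT sham Nppa sits at 15.5 to 38.7 CPM, in WT IR at 222 to 429, and Acta1 sits at 4.61 to 11.9 CPM in the Zeb2 cTg IR-labelled libraries, below every other library.

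The first comparison asks how these genes stood 14 days after IR in wild-type hearts. 4 of the 8 rose with an adjusted p under 0.05: both ligand genes, Acta1 and Ankrd1. Over all 13756 genes tested, 20.8% passed in either direction, 11.0% higher and 9.74% lower. The convertase Corin and the 3 receptors did not pass. The groups did not overlap for 5 of the 8, against 39.8% of all genes, and the median log2 fold change of the 8 was 0.35, against 0.01 over all genes.

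Nppa was measured at 38.7, 23.4 and 15.5 CPM in the WT sham hearts and at 222, 281 and 429 CPM in the WT IR hearts. Every IR heart was far above every sham heart. The mean rose 11.9-fold, from 25.9 ± 11.8 to 311 ± 106 CPM (SD, n = 3 each; log2 fold change 3.57, standard error 0.34, adjusted p = 0.00156). It ranked 12 among all genes tested by p-value.

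Nppb was at 63.6, 60.7 and 37.5 CPM in sham and at 111, 122 and 168 CPM in IR hearts, again with no overlap. Its 2.47-fold rise, from 53.9 ± 14.3 to 134 ± 30.1 CPM (log2 fold change 1.30, standard error 0.21, adjusted p = 0.0053), was smaller than that of its neighbour. Within each library, the ratio of Nppb to Nppa per kilobase was 1.82, 2.87 and 2.68 in sham hearts, where BNP transcripts outnumbered ANP transcripts, and 0.553, 0.482 and 0.434 in IR hearts, where the order was turned. The ratio fell by 2.31 on the log2 scale (two-sided exact permutation p = 0.1, which 3 against 3 cannot go below).

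Ankrd1 stood at 295, 243 and 181 CPM in sham hearts and at 494, 602 and 744 CPM in IR hearts. The groups were apart, and the mean rose from 239 ± 56.9 to 613 ± 125 CPM (log2 fold change 1.36, standard error 0.19, adjusted p = 0.00407). Its relative Ankrd23, another titin-binding ankyrin repeat protein, had a log2 fold change of -0.15 (adjusted p = 0.415), and Ankrd2 was at 0 to 3 counts and was not tested.

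Acta1 was at 127, 129 and 101 CPM in sham hearts and at 135, 188 and 250 CPM in IR hearts, so that the lowest IR heart lay just above the highest sham heart. The rise was the smallest of the 4 (log2 fold change 0.69, standard error 0.20, adjusted p = 0.0358). As a share of Actc1 per kilobase, Acta1 was 4.26%, 3.91% and 3.82% in sham hearts and 5.09%, 7.65% and 10.8% in IR hearts, higher in every IR heart (0.91 on the log2 scale, exact permutation p = 0.1, two-sided), while Actc1 itself had a log2 fold change of -0.26 (adjusted p = 0.209). Of the 1372 stretches of 75 bases (the read length) in the longest Acta1 transcript, 0.437% recur exactly in another gene, Actb or a predicted gene, and none in Actc1. No such stretch of the other 7 genes recurs in another gene.

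Corin was measured at 106, 105 and 98.5 CPM in sham and at 105, 81.0 and 68.5 CPM in IR hearts (log2 fold change -0.28, standard error 0.14, adjusted p = 0.173). The sham hearts were tight and the IR hearts spread downwards from the same level. Without WT IR replicate 1, which has the 105 CPM, the log2 fold change was -0.47 (adjusted p = 0.00147). That was the 1 fit in which Corin passed, of the 16 alternatives described below. Without each of the other libraries its adjusted p was 0.221 to 0.404. Leaving out WT IR replicate 1 also raised the calls over all genes, from 2859 to 4980.

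Npr1 was at 8.47, 9.26 and 9.60 CPM in sham and at 8.12, 8.23 and 7.20 CPM in IR hearts, without overlap (log2 fold change -0.21, standard error 0.10, adjusted p = 0.163). For Npr2 the values were 18.7, 18.0 and 13.9 CPM against 18.4, 16.6 and 14.9 CPM (log2 fold change -0.03, standard error 0.12, adjusted p = 0.9). For Npr3 they were 9.63 to 10.3 CPM against 11.8, 7.01 and 11.6 CPM (log2 fold change 0.02, standard error 0.18, adjusted p = 0.96). Npr2 and Npr3 overlapped throughout. The ratio of the clearance receptor Npr3 to the signalling receptor Npr1 differed by 0.20 on the log2 scale (exact permutation p = 0.6, two-sided).

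Beside these values, markers of other cells moved with the injury. The summed level of 10 cardiomyocyte markers was 20100 to 21800 CPM in sham and 14300 to 19300 CPM in IR hearts, that of 7 fibroblast markers 471 to 865 and 1730 to 4330 CPM, and that of 7 macrophage markers 115 to 128 and 178 to 344 CPM. Of the cardiomyocyte markers, Tnni3 (log2 fold change -0.52, adjusted p = 0.0373), Myl3 (-0.56, adjusted p = 0.0237) and Ryr2 (-0.58, adjusted p = 0.0276) passed. Myh6, the largest part of their sum, did not pass (-0.50, adjusted p = 0.086), and neither did the rest, among them Myl2 (-0.06) and Pln (-0.20). The 6 mural cell markers (smooth muscle and pericytes) summed to 398 to 406 and 430 to 495 CPM, also without overlap. Most of that sum is Rgs5 (log2 fold change 0.19, adjusted p = 0.191). Tagln (0.77, adjusted p = 0.0133) and Pdgfrb (0.48, adjusted p = 0.0063) passed, while Myh11 (-0.02), Cnn1 (0.69) and Kcnj8 (0.06) did not. The 7 atrial markers summed to 6.25 to 7.04 and 14.5 to 30.3 CPM, through Dkk3, with Sln and Myl7 at 0 to 3 counts in each of these libraries. Dkk3 rose from 1.19 ± 0.44 to 17.1 ± 9.13 CPM (adjusted p = 0.00208). Stard10, of the same list, fell from 4.66 ± 0.307 to 2.70 ± 0.765 CPM (adjusted p = 0.0211), and no other atrial marker passed. In whole tissue, fewer cells of a type and less RNA per cell cannot be told apart. Scaled to the cardiomyocyte markers, the median of all genes was 0.39 on the log2 scale and Nppa, Nppb, Ankrd1 and Acta1 were 4.03, 1.74, 1.79 and 1.13 higher, all above that median. The part of the other cells in these results was not tested.

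**Figure D2:**
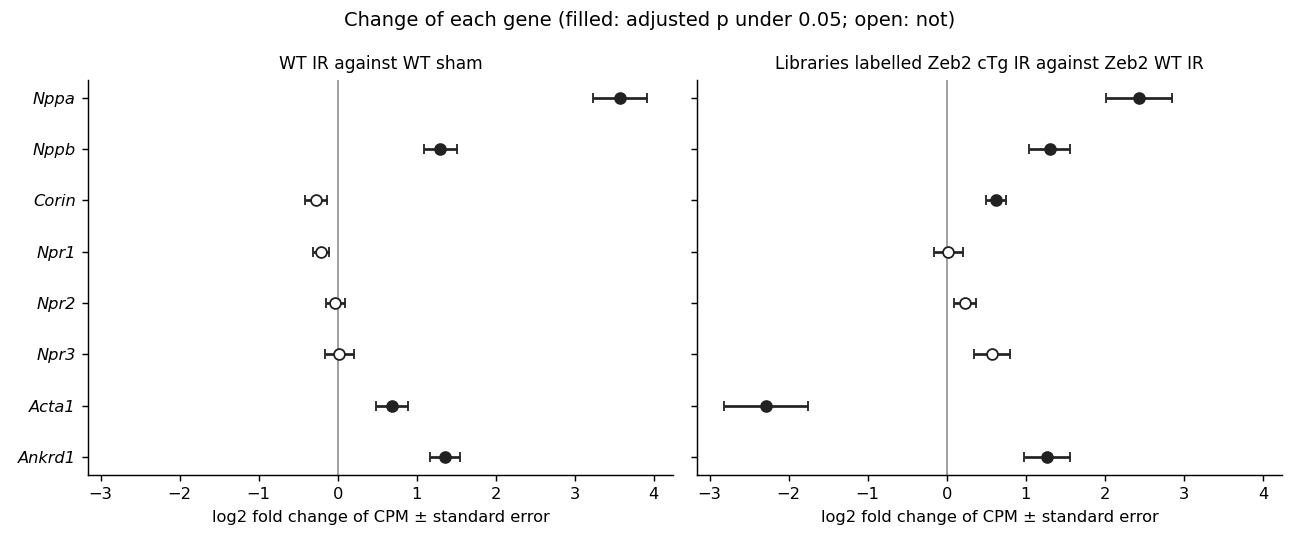
log2 fold change of CPM (dot) with its standard error (bar) for the 8 genes in WT IR against WT sham (left) and in the Zeb2 cTg IR-labelled libraries against Zeb2 WT IR (right). Filled dots have an adjusted p under 0.05, 4 on the left and 5 on the right; Nppa is highest in both, at 3.57 and 2.43, and Acta1 is at 0.69 and -2.29.

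The second comparison asks how the same genes stood after IR in hearts labelled as overexpressing Zeb2, against littermates with the same injury. 5 of the 8 passed: Nppa, Nppb, Corin and Ankrd1 were higher and Acta1 was lower in the Zeb2 cTg IR-labelled libraries. Over all 13018 genes tested, 3.64% passed in either direction, 2.14% higher and 1.51% lower. The groups did not overlap for 6 of the 8, against 26.2% of all genes, and the median log2 fold change of the 8 was 0.59, against 0.01 over all genes.

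Nppa was at 27.0, 26.7 and 62.2 CPM in Zeb2 WT IR hearts and at 104, 240 and 279 CPM in the Zeb2 cTg IR-labelled libraries. All of the latter were higher. The mean was 208 ± 92.1 against 38.7 ± 20.4 CPM, 5.37-fold (log2 fold change 2.43, standard error 0.42, adjusted p = 0.0182). The library labelled Zeb2 cTg IR replicate 3, with the highest value, is also the one with 39 counts of the atrial gene Myl7, and without it the log2 fold change was 2.16 (adjusted p = 0.0663). Another atrial gene, Mybphl, was higher in all 3 libraries of this group, with 24, 11 and 29 counts against 1, 0 and 0 in Zeb2 WT IR hearts, and its part in the result was not tested.

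For Nppb, the values of 65.0, 56.8 and 94.1 CPM in Zeb2 WT IR hearts were all below the 136, 249 and 144 CPM of the Zeb2 cTg IR-labelled libraries (log2 fold change 1.30, standard error 0.26, adjusted p = 0.0308). The ratio of Nppb to Nppa per kilobase was 2.66, 2.36 and 1.67 in Zeb2 WT IR hearts and 1.45, 1.15 and 0.572 in the Zeb2 cTg IR-labelled libraries, lower in each of these (-1.15 on the log2 scale, exact permutation p = 0.1, two-sided). Nppa had the larger fold change of the pair in both comparisons.

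Corin, the pro-ANP convertase, was at 82.8, 93.1 and 68.9 CPM in Zeb2 WT IR hearts and at 121, 130 and 124 CPM in the Zeb2 cTg IR-labelled libraries. These were close to each other and above every littermate (log2 fold change 0.62, standard error 0.13, adjusted p = 0.0397). Scaled to the cardiomyocyte markers, the log2 fold change was 0.45 with the median of all genes at -0.17, and it did not pass (adjusted p = 0.325).

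Ankrd1 had 435, 362 and 522 CPM in Zeb2 WT IR hearts and 642, 1570 and 958 CPM in the Zeb2 cTg IR-labelled libraries, all of them higher (log2 fold change 1.27, standard error 0.29, adjusted p = 0.0482). Ankrd23 had a log2 fold change of -0.10 (adjusted p = 0.825). With the cardiomyocyte markers as scale, Ankrd1 and Nppb each had a log2 fold change of 1.16 and did not pass (adjusted p = 0.103 and 0.0901).

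Acta1 moved the other way. It was at 32.0, 14.8 and 74.0 CPM in Zeb2 WT IR hearts and at 4.61, 8.05 and 11.9 CPM in the Zeb2 cTg IR-labelled libraries, all of them lower (log2 fold change -2.29, standard error 0.53, adjusted p = 0.0496). The Zeb2 WT IR hearts spread widely, and the highest of them is the one with the most fibroblast marker RNA. Actc1 stood at 2580 ± 44.1 and 3050 ± 62.8 CPM (log2 fold change 0.24, adjusted p = 0.26). Acta1 was 1.29%, 0.6% and 3.08% of Actc1 per kilobase in Zeb2 WT IR hearts and 0.156%, 0.279% and 0.417% in the Zeb2 cTg IR-labelled libraries (-2.35 on the log2 scale, exact permutation p = 0.1, two-sided).

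The receptors did not pass, although Npr3 did in 4 of the 16 alternative fits described below. Npr3 was at 8.73, 15.9 and 16.4 CPM in Zeb2 WT IR hearts and at 17.3, 23.4 and 20.2 CPM in the Zeb2 cTg IR-labelled libraries, with no overlap (log2 fold change 0.57, standard error 0.23, adjusted p = 0.171). Npr1 was at 7.63, 6.19 and 8.73 against 7.71, 6.45 and 8.71 CPM, nearly the same values in both groups (log2 fold change 0.02, standard error 0.18, adjusted p = 0.957). Npr2 was at 15.7, 12.2 and 13.6 against 17.2, 14.3 and 17.2 CPM, with overlap (log2 fold change 0.23, standard error 0.14, adjusted p = 0.341). The ratio of Npr3 to Npr1 differed by 0.59 on the log2 scale (exact permutation p = 0.3, two-sided).

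The 7 fibroblast markers summed to 483 to 595 CPM in the Zeb2 cTg IR-labelled libraries against 822 to 1870 CPM, with no overlap. 2 of the 7 passed, the collagens Col1a2 and Col3a1, and Tcf21 had a log2 fold change of 0.01 (adjusted p = 0.989). The 6 mural markers summed to 334 to 396 against 447 to 480 CPM, also without overlap. Most of that sum is Rgs5 (log2 fold change -0.37, adjusted p = 0.128). Kcnj8 was at -0.41 and Myh11, Tagln and Pdgfrb at 0.20, 0.02 and -0.04, and no tested mural marker passed. The cardiomyocyte markers summed to 15700 to 21800 against 15600 to 18200 CPM and the macrophage markers to 134 to 150 against 128 to 190 CPM. The cardiomyocyte markers did not move together: Tnnt2 (0.68, adjusted p = 0.0375) and Mybpc3 (0.84, adjusted p = 0.0244) were higher. Myl2 (-0.38) and Pln (-0.34) were lower without overlap but did not pass, and the others overlapped. The 7 skeletal muscle markers summed to 0.344 to 1.21 and 0.162 to 0.5 CPM. The 7 endothelial markers summed to 319 to 375 against 358 to 402 CPM and the 5 endocardial markers to 30.7 to 62 against 25.9 to 33.4 CPM, both with overlap. None of these markers passed. Kdr (-0.41), Emcn (-0.41) and Cdh11 (-0.66) were lower without overlap, and Vwf (0.90) and Smoc1 (0.59) higher without overlap.

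The 7 atrial markers summed to 4.39 to 8.54 and 4.49 to 10.2 CPM, but they did not move together. Dkk3, which makes up much of the sum, was at 1.57 ± 0.559 against 5.30 ± 2.98 CPM (adjusted p = 0.0563). Mybphl passed, at 0.747 ± 0.299 against 0.0122 ± 0.0212 CPM (adjusted p = 0.0098). Myl4 was at 1.36 ± 0.638 against 0.438 ± 0.032 CPM without overlap (adjusted p = 0.0606), and Bmp10 had 1, 6 and 4 counts against 0 in every Zeb2 WT IR heart. The part of these shifts in the results was not tested.

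**Figure D3:**
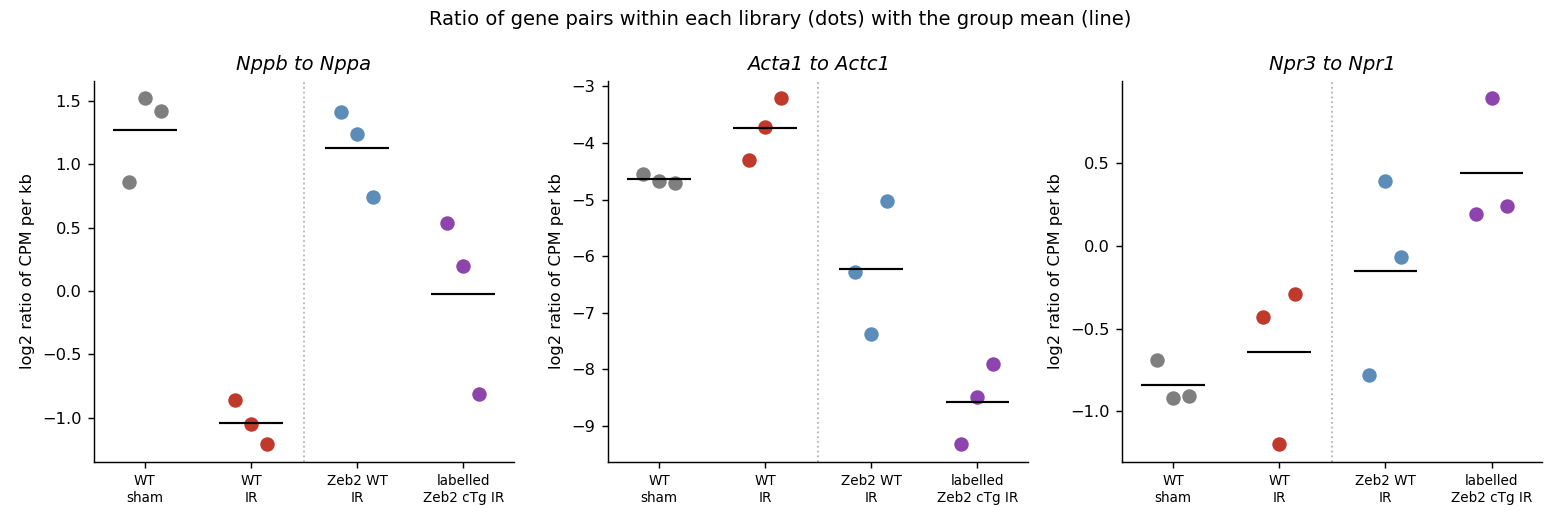
log2 ratio, within each library (dot), of CPM per kb of Nppb to Nppa, Acta1 to Actc1 and Npr3 to Npr1, with group means (lines); the dotted line separates the tables. For the first pair the groups of each table are apart, at means of 1.27 in WT sham and -1.04 in WT IR, and of 1.13 in Zeb2 WT IR and -0.02 in the Zeb2 cTg IR-labelled libraries.

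The tables were normalized separately and share no mice, so the injured control groups can only be set side by side. Nppa was at 26.7 to 62.2 CPM in Zeb2 WT IR and at 222 to 429 CPM in WT IR, and the former lies near the 15.5 to 38.7 CPM of WT sham hearts. Acta1 was at 135 to 250 CPM in WT IR and at 14.8 to 74.0 CPM in Zeb2 WT IR, the latter below the sham hearts with 101 to 129 CPM. Other genes stood higher in Zeb2 WT IR than in WT sham. Ankrd1 was at 440 ± 80 CPM, against 239 ± 56.9 in WT sham and 613 ± 125 in WT IR (SD, n = 3). Myh7 was at 177 ± 122 CPM, against 13.5 ± 4.69 and 220 ± 77.2. WT IR and Zeb2 WT IR are both labelled as wild-type hearts 14 days after IR. The difference between the tables cannot be told apart from one in surgery, zone or sequencing.

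The calls of the first comparison rested on several hearts for 3 of the 4 genes. Nppa, Nppb and Ankrd1 passed without any 1 of the 6 libraries, with log2 fold changes of 3.26 to 3.98, 1.09 to 1.43 and 1.18 to 1.53. Acta1 passed in 1 of the 6 fits. Its adjusted p was 0.0852, 0.11 and 0.131 without WT sham replicates 1, 2 and 3 and 0.101 and 0.07 without WT IR replicates 2 and 3, at log2 fold changes of 0.44 to 0.88 that were all upwards.

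In the second comparison no gene passed in all 6 such fits, although the 5 directions held in each. Without the library labelled Zeb2 cTg IR replicate 3 none of the 8 genes passed edgeR's test, while 5 had an unadjusted p under 0.05 (with all 6 libraries, 6 of the 8 and 24.1% of all genes). Nppa passed in 4 of 6, with adjusted p-values of 0.0533 without Zeb2 WT IR replicate 2 and 0.0663 without the library labelled Zeb2 cTg IR replicate 3. The other 4 passed in 2 of 6 each.
Nppb was at 0.0695, 0.0862 and 0.0506 without Zeb2 WT IR replicates 1, 2 and 3 and at 0.0657 without the library labelled Zeb2 cTg IR replicate 3. Ankrd1 was at 0.0827, 0.127, 0.132 and 0.115 without the same libraries. Corin and Acta1 passed instead without Zeb2 WT IR replicate 2. Corin was at 0.0783 and 0.178 without Zeb2 WT IR replicates 1 and 3 and at 0.128 without the library labelled Zeb2 cTg IR replicate 1 or 3, and Acta1 at 0.0607, 0.16, 0.152 and 0.102 without these. The change of Acta1 was -1.51 without Zeb2 WT IR replicate 3, its highest library. With all 6 libraries, the adjusted p-values of Acta1 and Ankrd1, 0.0496 and 0.0482, already lay just under the threshold.

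**Figure D4:**
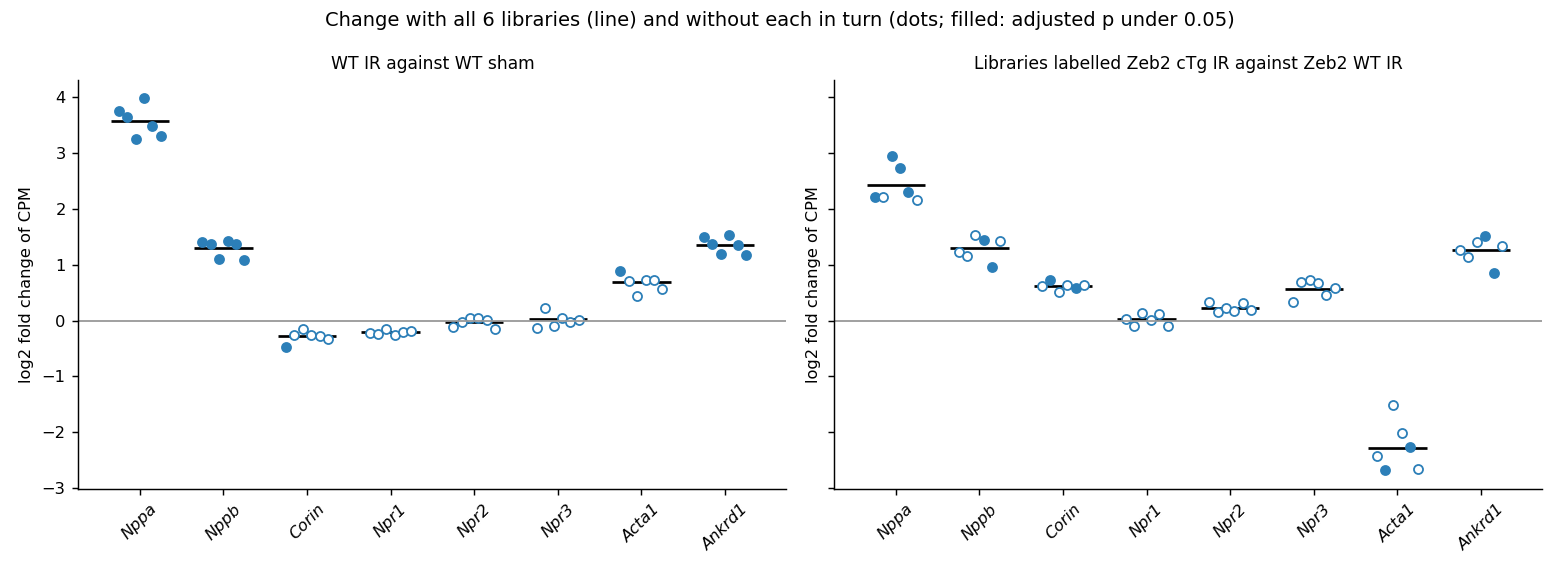
log2 fold change of CPM of each gene with all 6 libraries (line) and without each library in turn (dots; filled where the adjusted p is under 0.05), in both comparisons. On the left Nppa, Nppb and Ankrd1 are filled throughout; on the right Nppa is filled in 4 of 6 and Nppb, Corin, Acta1 and Ankrd1 in 2 of 6 each.

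The rest of the natriuretic pathway was followed in a list of 13 genes, of which 10 were tested. After IR in wild-type hearts 2 rose, against 11.0% of all genes, the soluble guanylyl cyclase subunits Gucy1a1 (log2 fold change 1.15, adjusted p = 0.00448) and Gucy1b1 (0.81, adjusted p = 0.00383), which make cGMP in response to nitric oxide rather than to natriuretic peptides. Furin, a protease that processes pro-BNP, was the 1 gene that fell, against 9.74% of all genes, by 0.65 on the log2 scale from 28.8 ± 2.44 to 18.3 ± 1.64 CPM (adjusted p = 0.00407). In the Zeb2 cTg IR-labelled libraries, 2 were lower, against 1.51% of all genes: Mme (neprilysin, which degrades natriuretic peptides) at 2.70 ± 0.974 against 10.6 ± 3.12 CPM (log2 fold change -1.95, adjusted p = 0.0117) and Gucy1a1 at 15.4 ± 2.61 against 29.1 ± 6.56 CPM (-0.92, adjusted p = 0.032). Gucy1b1 did not pass (-0.57, adjusted p = 0.0639). The cGMP-dependent kinase Prkg1 and the phosphodiesterases Pde3a, Pde5a and Pde9a passed in neither comparison. The median over the tested genes of the list was 0.12 in the first comparison and -0.22 in the second, against 0.01 over all genes in each. Pde2a was not analysed here.

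Among 18 further fetal and stress genes, 15 were tested in the first comparison, and 4 rose and 3 fell, against 11.0% and 9.74% of all genes. The 4 were led by Myh7 (β-myosin heavy chain, the fetal ventricular isoform), which went from 18.9, 10.9 and 10.7 CPM to 186, 166 and 308 CPM (log2 fold change 4.02, adjusted p = 0.000462), beside 3.57 for Nppa. Ccn2 (connective tissue growth factor) rose by 2.24, Xirp2 by 0.62 and Fhl1 by 0.61 on the log2 scale (adjusted p = 0.00366, 0.0149 and 0.0237). Those that fell were Acta2 (smooth muscle α-actin) by 0.57, the slow skeletal troponin Tnnt1 by 0.88 and the sarcomere protein Mypn by 0.32 (0.06 higher on the cardiomyocyte marker scale, still under its median of 0.39; adjusted p = 0.0163, 0.0188 and 0.025). Over the 16 alternative fits described below, Acta2 passed in 12, Tnnt1 in 11 and Mypn in 10, and the weakest changes of Acta2 and Tnnt1 were -0.19 and -0.52. The median of the list was 0.30, against 0.01 over all genes.

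In the second comparison 14 of these genes were tested, with a median of -0.04 against 0.01, and 2 were higher and 2 lower, against 2.14% and 1.51% of all genes. Acta2 was higher in the Zeb2 cTg IR-labelled libraries, at 53.9 ± 12.7 against 16.9 ± 3.21 CPM (log2 fold change 1.67, adjusted p = 0.00463), and so was Flnc (filamin C; 0.97, adjusted p = 0.0438). Xirp2 (-0.96) and Fhl1 (-0.66) were lower (adjusted p = 0.0283 for both). Myh7 did not pass. It was at 243, 35.4 and 251 CPM in Zeb2 WT IR hearts and at 43.0, 70.3 and 81.8 CPM in the Zeb2 cTg IR-labelled libraries, with overlap (log2 fold change -1.44, adjusted p = 0.169). Zeb2 WT IR replicate 2, the heart with the least Myh7, also had the least Acta1 of its group.

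Of 14 transcription factors and cofactors listed as upstream factors, all were tested and 6 fell after IR in wild-type hearts, against 9.74% of all genes: Nkx2-5 by 1.30, Hand2 by 0.77, Myocd by 0.66, Srf by 0.60, Gata4 by 0.46 and Tead1 by 0.32 (0.07 higher on the cardiomyocyte marker scale) on the log2 scale (adjusted p = 0.00407, 0.00448, 0.00795, 0.0129, 0.00904 and 0.0218). Whether they act on the 8 genes here was not tested. Over the 16 alternative fits described below, Nkx2-5 passed in 16, Hand2 in 15, Gata4 and Myocd in 14 each and Srf and Tead1 in 10 each. The weakest changes among these fits were -0.67 for Nkx2-5, -0.39 for Hand2, -0.29 for Myocd, -0.14 for Srf and -0.08 for Gata4. The other 8 factors did not pass, and the median was -0.22, against 0.01 over all genes. Without each library in turn, Nkx2-5, Hand2, Furin, Gucy1a1, Gucy1b1, Myh7 and Ccn2 passed in all 6 fits of the first comparison and the other named list genes in 1 to 5. In the Zeb2 cTg IR-labelled libraries, Nkx2-5 was higher (4.41 ± 2.00 against 1.15 ± 0.424 CPM, log2 fold change 1.94, adjusted p = 0.0346) and Tead1 lower (-0.71, adjusted p = 0.0166), while Srf (0.63), Gata4 (0.27) and the other 10 did not pass (median of all 14, 0.14, against 0.01). Over all genes, 2.14% were higher and 1.51% lower. Without each library in turn, Acta2 passed in all 6 fits of the second comparison, Mme in 5, Tead1 in 3 and Gucy1a1, Flnc, Xirp2, Fhl1 and Nkx2-5 in 2 each.

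**Figure D5:**
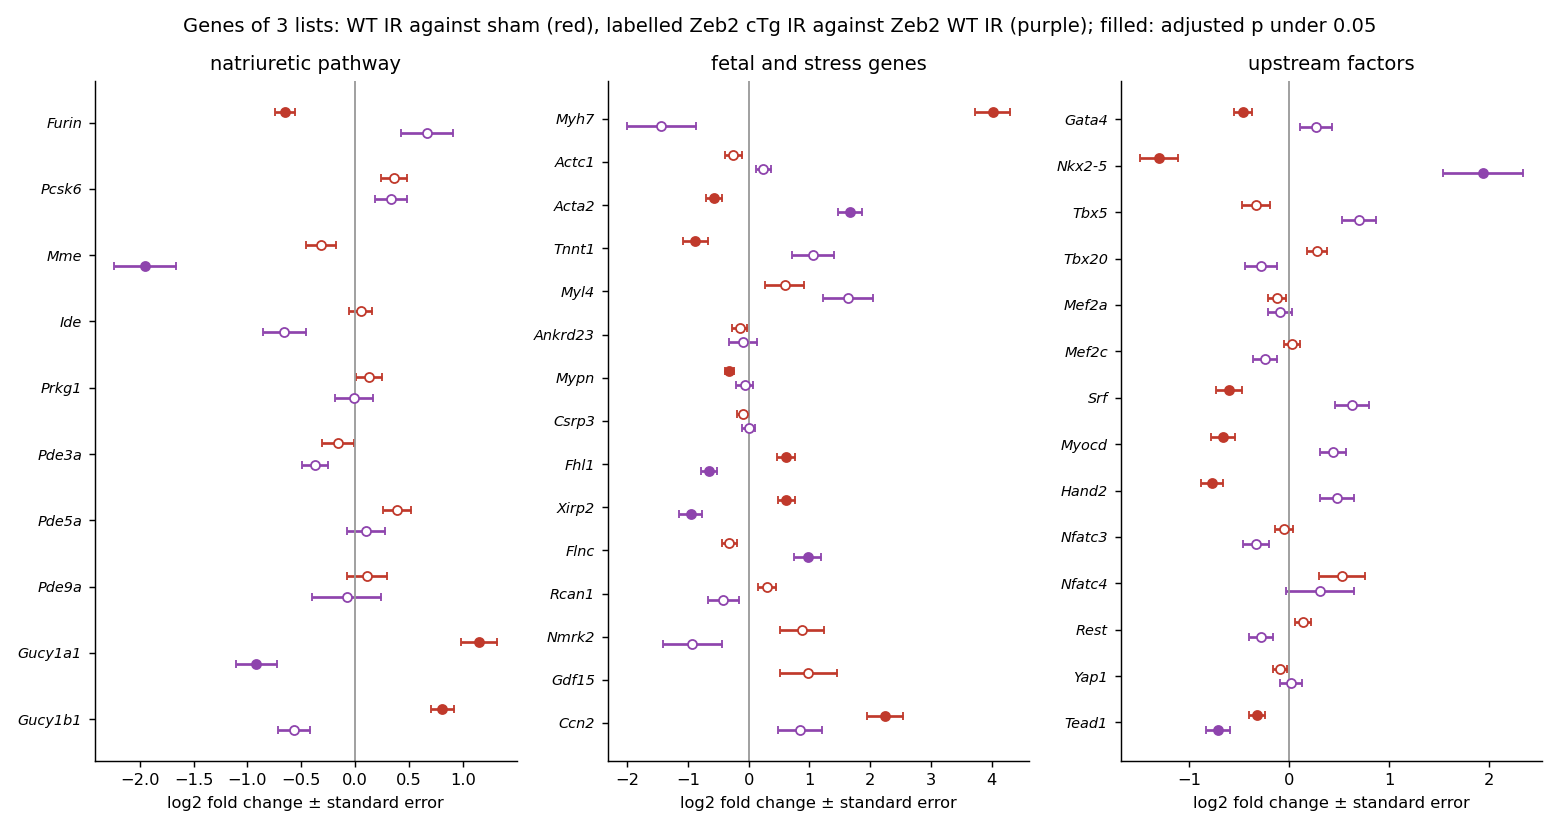
log2 fold change with its standard error for the tested genes of 3 lists, in WT IR against WT sham (red) and in the Zeb2 cTg IR-labelled libraries against Zeb2 WT IR (purple); filled dots have an adjusted p under 0.05. Myh7 is the farthest to the right, at 4.02 in red, and Mme the farthest to the left, at -1.95 in purple.

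Once the group means were taken out, the genes most like each of the 8 over the 12 libraries, among 6895 with at least 5 CPM on average in both tables, were found by Pearson's r as a description. Nppa was closest to Ltbp2 (0.911), Nedd9 (0.909) and Tbc1d13 (0.896), and Nppb to Tnfrsf12a (0.951), Pam (0.945) and Ifit2 (0.915). Ifit2 was also the closest to Ankrd1 (0.982), before Spty2d1 (0.928) and Phtf1 (0.926). Corin was closest to Myocd (0.98), Lrrfip2 (0.972) and Slc25a3 (0.97), and Acta1 to Carhsp1 (0.945), Rcan3 (0.931) and Sash1 (0.927). Npr1 was closest to the endothelial gene Pecam1 (0.922), Sema6a (0.9) and Zfp608 (0.899). Npr2 was closest to Uba1 (0.982), Myo18b (0.957) and Prcc (0.955), and Npr3 to Nudt5 (0.888), Yes1 (0.883) and Pdgfd (0.881). Each of these is the best of all those compared, over 12 libraries that share their depth and composition.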

How the data were processed

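The authors aligned single-end reads of 75 bases (STAR 2.4.2a and HTSeq 0.6.1, per the processing notes of the submitters) and deposited 2 tables of whole-number counts per gene, without normalization, with 6 libraries each (3 per group), on build mm10 with GENCODE release M4. The methods name a stranded total RNA kit and the labels a stranded mRNA kit. Symbols, positions and exonic lengths were taken here from GENCODE M21 (GRCm38), and promoters from RefSeq (GRCm38.p6), where all 8 genes matched. Totals of 20215781 to 36816818 counts per library set the precision.

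Genes were kept by filterByExpr (at least 10 counts, 15 in total), scaled by TMM factors and compared between the labelled groups, within each table, by the quasi-likelihood test of edgeR 4.0.16 (R 4.3.3). P-values were adjusted over the whole table by Benjamini-Hochberg, with a threshold of 0.05. P-values measure the spread between mice of single experiments. Ratios were compared by exact permutation tests. No libraries agreed within sampling noise.

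The alternatives were RLE or cardiomyocyte marker size factors, no mitochondrial genes, at least 10 counts in every library, no filter, DESeq2 1.42.0, the replicate number as a block, a GC correction (loess, span 0.5), both together, all 12 libraries in 1 fit, and each library left out in turn. The 8 genes and all lists were chosen with earlier results of these data known. Named genes are Zeb2, the 8 genes, their relatives Actc1, Nppc, Ankrd2 and Ankrd23, list genes that passed in either comparison, the 3 genes most like each of the 8 (predicted genes left out) and markers at 0 or moving with a result; list genes named as not passed were chosen after their values were seen. The groups, tests and markers come from the labels and textbook knowledge, and no test here used the authors' own DESeq results, qPCR or protein data.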

Additional observations from a re-analysis of the deposited data

How the results depend on the processing

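Over the 16 log2 fold changes of the 8 genes and 16 alternatives each (256 values), 200 kept direction and side of the threshold, 31 lost the call, 5 gained it and 20 changed direction; these 20 belong to Npr1, Npr2, Npr3 and Corin where they had not passed. 4 of the 8 genes passed in WT IR against WT sham, and 3 to 5 did under every alternative and without each library in turn. Of the 5 that passed between the Zeb2 groups, 2 passed with cardiomyocyte marker size factors and 3 with at least 10 counts in every library, where Acta1 and Ankrd1 had an adjusted p of 0.0534 and 0.0519; without each library in turn the count was 0 to 5. DESeq2 gave 5. Of the list genes, 16 passed in the first comparison (7 to 25 without each library) and 8 in the second, where the count was 4 with cardiomyocyte marker size factors, 19 with no filter, 13 with DESeq2, 16 with the replicate block, 18 with all 12 libraries in 1 fit, and 1 to 15 without each library. Over all genes, 2859 passed in the first comparison (421 to 4980 without each library, 4544 with cardiomyocyte markers, 1424 with all 12 libraries) and 474 in the second (98 to 2419 without each library, 1553 with no filter, 1027 with DESeq2, 1813 with the replicate block, 854 with the GC correction, 759 with both, 1932 with all 12 libraries). With cardiomyocyte marker size factors the calls were 4410 higher and 134 lower in the first comparison (1519 and 1340 otherwise) and 123 higher and 214 lower in the second (278 and 196). With the GC correction the first split was 1178 and 1570, and with all 12 libraries 950 and 474. Division by length cancels in the 6 differences between groups on the log2 scale, so leaving it out could not change them and tests nothing. Without each library in turn, the ratio of Nppb to Nppa changed by -2.51 to -2.18 and -1.43 to -0.76, Acta1 to Actc1 by 0.64 to 1.19 and -2.92 to -1.74, and Npr3 to Npr1 by 0.02 to 0.48 and 0.28 to 0.86.

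Directions that changed were all of genes that had not passed, except Mypn and Tead1. With cardiomyocyte marker size factors in WT IR against WT sham, the log2 fold changes were 0.17 for Npr1, 0.36 for Npr2, 0.08 for Corin, 0.06 for Mme, 0.13 for Actc1, 0.27 for Ankrd23, 0.06 for Mypn, 0.08 for Flnc and 0.07 for Tead1, all below the 0.39 by which that scale moved the median gene; between the Zeb2 groups Npr1 was at -0.19, close to the shift of -0.17. With the GC correction Npr3 was at -0.13 in the first comparison, and in the second Npr1 was at -0.36, Npr2 at -0.03, Zeb2 at 0.15 and Gata4 at -0.1; log2 fold change and GC content were related across genes with a Spearman's rho of -0.292 and 0.552. Without each library in turn, Npr2 lay between -0.15 and 0.05 and Npr3 between -0.13 and 0.23 in the first comparison, and Npr1 between -0.1 and 0.14, Ankrd23 between -0.34 and 0.05 and Zeb2 between -0.13 and 0.02 in the second.

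The replicate numbers belong to different mice. Deviations of same-numbered mice correlated by -0.0343 to 0.0119 in the WT table and by -0.0425 to 0.26 in the Zeb2 table. Those of differently numbered mice correlated by -0.105 to 0.107 and by -0.333 to 0.33. The numbers were not taken as pairs, and whether they stand for a litter or a day of surgery was not tested. With the replicate block, 3 of the 8 genes passed in the first comparison (Acta1 at an adjusted p of 0.0587) and 6 in the second (Npr3 at 0.0303), and Npr3 was at -0.02 in the first. In the second, Npr3 also passed with no filter (adjusted p = 0.0491), with the GC correction (0.0465) and with block and GC correction together (0.0213). With the replicate block and the GC correction, Npr2 was at 0 and Npr3 at -0.16 in the first, and Npr1 at -0.36, Npr2 at -0.03, Zeb2 at 0.15, Gata4 at -0.1 and Srf at -0.02 in the second. Where no cause is given here, the cause was not tested.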

Other observations

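Within the groups, the deviations of the 8 genes from their group means over the 12 libraries were not all alike. Ankrd1 deviated with Nppb (Pearson's r 0.91) and with Nppa (0.82), and Nppa with Acta1 (0.81) and with Nppb (0.76). Corin and Acta1 deviated in opposite directions (-0.66), and Npr1 and Npr2 had values of -0.23 to 0.08 with the ligand genes. These are descriptions over few libraries, which share the normalization and composition of their tables.

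An antisense gene, Gm13054, overlaps Nppa on the opposite strand and had 0 to 10 counts per library. Antisense genes over Npr1 and Npr2 had at most 1 count. Within the introns and exons of Corin lie 5 other annotated genes, of which AU023070, a lincRNA on the same strand, had 4 to 50 counts. The strand setting of the counting is not given in the sources used here.

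Gdf15, a stress cytokine of injured muscle, was not tested in the Zeb2 table because its counts were too low, at 0.298 ± 0.166 CPM in the Zeb2 cTg IR-labelled libraries and 0.0122 ± 0.0212 CPM in Zeb2 WT IR (SD, n = 3).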
